A study of Mus musculus with 20 samples.

Results

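The nuclear genes of oxidative phosphorylation were examined in C2C12 myotubes, fused muscle cells derived from an established mouse myoblast line. The genes were chosen by symbol alone, as those beginning with Nduf, Uqcr, Cox4 to Cox8 or Atp5 together with Sdha, Sdhb, Sdhc and Sdhd, without symbols marked as pseudogenes. Of 26722 genes in the count table, 96 met this rule: 7 core subunits, 33 accessory subunits and 8 assembly factors of complex I, 4 subunits of complex II, 8 of complex III, 19 of complex IV and 17 of complex V. These counts follow the symbols: Ndufa11b, Ndufb4c and Ndufs6b among the accessory subunits and Cox6c2 in complex IV are annotated as processed pseudogenes. Total RNA was sequenced in 20 libraries, 4 of each of 5 treatments, after 5 days of differentiation and 16 h of treatment.

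All 5 groups received an antibody at 7.7 nM, so that no group was untreated. The control group received b12 hIgG4, a negative control antibody. The bivalent group received 13-3B5 hIgG4, an activating antibody to MuSK, the muscle receptor kinase through which nerve-derived agrin acts. The agrin group received 0.1 nM neural agrin together with b12 hIgG4. The remaining groups received 0.1 nM neural agrin with 13-3B5xb12 or with 11-3F6xb12, monovalent MuSK antibodies that inhibit. The myotubes are a single line grown without nerve. The replicates are called biological, but what libraries with the same replicate number share is not given.

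Oxidative phosphorylation takes place in the inner mitochondrial membrane. Complexes I and II pass electrons from NADH and succinate through ubiquinone to complex III, cytochrome c carries them to complex IV, which reduces oxygen, and complex V makes ATP from the proton gradient that complexes I, III and IV build. Most subunits are encoded in the nucleus and imported, a few are encoded by mitochondrial DNA, and in striated muscle several small subunits of complex IV have a heart and muscle form beside a general form.

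The 250 bases upstream of the RefSeq start sites of 3 oxidative phosphorylation genes are printed. They set the general forms Cox8a and Cox6a1 beside the muscle form Cox8b. The sequences are from GRCm38.p6 and all 3 are on the minus strand, for Cox8a at chr19:7217617-7217866, for Cox8b at chr7:140900447-140900696 and for Cox6a1 at chr5:115348959-115349208. Capitals mark exact matches, on either strand, to the NRF1 consensus motif, an ETS motif (CCGGAAG) or an E-box (CAGCTG).
Cox8a: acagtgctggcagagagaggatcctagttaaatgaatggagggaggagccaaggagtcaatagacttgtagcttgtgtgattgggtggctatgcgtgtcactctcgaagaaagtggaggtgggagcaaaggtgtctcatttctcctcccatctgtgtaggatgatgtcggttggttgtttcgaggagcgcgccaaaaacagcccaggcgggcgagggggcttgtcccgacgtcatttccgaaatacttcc
Cox8b: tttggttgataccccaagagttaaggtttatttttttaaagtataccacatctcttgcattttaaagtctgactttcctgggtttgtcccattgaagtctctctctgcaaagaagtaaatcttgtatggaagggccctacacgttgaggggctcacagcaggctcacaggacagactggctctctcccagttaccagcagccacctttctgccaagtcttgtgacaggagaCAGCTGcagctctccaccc
Cox6a1: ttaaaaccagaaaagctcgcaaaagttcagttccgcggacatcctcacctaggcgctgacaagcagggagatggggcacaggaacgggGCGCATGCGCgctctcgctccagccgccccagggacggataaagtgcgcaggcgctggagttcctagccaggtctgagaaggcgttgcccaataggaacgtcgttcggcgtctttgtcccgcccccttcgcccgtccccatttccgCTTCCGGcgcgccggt
The Cox6a1 stretch holds an NRF1 match, its longer run of capitals, and an ETS match on the other strand, the Cox8b stretch an E-box, and the Cox8a stretch none of these motifs.

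RefSeq promoter windows of 300 bases, 250 before and 50 after the start, were matched for 76 of the 96 genes. The NRF1 motif, bound by a regulator of respiratory genes, was in 7 of the 76 (9.21%) and in 1.07% of 27025 genes with a window. The ETS motif was in 19 (25.0%, against 9.93%), a YY1 motif in 5 (6.58%, against 0.755%) and an estrogen-related receptor motif (TCAAGGTCA) in 2 (2.63%, against 0.466%). The E-box, added to the search after the values were seen, was in 6 (7.89%, against 18.3%). Cox6a1 was the gene of complex IV with the NRF1 motif, and Cox8b the gene of complex IV with the E-box. The ETS match counted for Cox8a spans its start site, and so is only in part in the stretch printed. These matches are letters in a window and say nothing about binding.

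Depth ranged from 18424881 to 23343903 counts per library, and the 96 genes together took 0.760% to 1.07% of them. Mitochondrially encoded genes took 27.9% to 39.1% of counts. Most of this was mt-Rnr2, a mitochondrial ribosomal RNA, which alone took 25.4% to 35.9% of counts. All 18 markers of differentiated myotubes were expressed, with summed levels of 15839 to 21531 CPM, counts scaled to a common library total by the trimmed mean of M-values (TMM) method. The 8 markers of macrophages and blood summed to 0.460 to 2.32 CPM and the 11 of liver to 0.0914 to 23.5 CPM, the highest in agrin replicate 3. Control replicate 2 and the replicate 1 library of agrin with 13-3B5xb12 stand apart from the others of their treatments, and results that rest on them are given with and without them. The 13-3B5xb12 library had counts for 16261 genes, the fewest, beside 17089 in the next lowest library. Control replicate 2, with 17905 genes, was not low in this. RNA was measured in bulk, so fewer cells of a type and less RNA per cell cannot be told apart.

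Of the 96 genes, 89 passed the filter on low counts. The 7 that did not were Ndufa11b, Ndufb4c, Ndufs6b, Cox4i2, Cox6c2, Cox7b2 and Ndufa4l2, whose highest count in any library was 4, 6, 2, 18, 9, 10 and 11. Among the 89, the mean level over the 20 libraries ran from 2.80 CPM for Cox7a1 to 1315 CPM for Atp5b, with a median of 74.0 CPM, not corrected for length. The median coefficient of variation over all libraries was 12.6%.

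Per kilobase of mRNA the complexes differed in level. Assembly factors of complex I, which are not part of the finished enzyme, had a median of 9.53 CPM per kilobase and none exceeded 19.7 (Ndufaf1). Complex I core and accessory subunits had medians of 84.4 and 71.8 CPM per kilobase, and Ndufa6 led the accessory subunits at 352. Complex II had a median of 61.6, with Sdhd, a membrane anchor, at 105 and Sdha, the flavoprotein, at 39.7 CPM per kilobase. Complexes III, IV and V had medians of 110, 155 and 170 CPM per kilobase, and their leading genes were Uqcrh at 389, Ndufa4 at 387 and Atp5b, the catalytic beta subunit, at 686.
Levels per kilobase within a complex spread widely, where alternative forms of a subunit count as separate genes. Complex IV ran from 6.37 CPM per kilobase for Cox7a1, a muscle form beside the general form Cox7a2, to 387 for Ndufa4. Complex III ran from 30.5 for Uqcrq to 389 for Uqcrh. Ndufb2 was the lowest accessory subunit of complex I at 4.04. The 3 genes of the c ring of complex V, Atp5g1, Atp5g2 and Atp5g3, stood at 35.2, 192 and 129 CPM per kilobase. This spread follows the lengths used, 2675.5, 586 and 718.5 bases. Not corrected for length, the 3 genes lay near each other. In replicates 1 and 2 the mean log2 ratio was -0.26 for Atp5g1 to Atp5g2 and -0.03 for Atp5g1 to Atp5g3. Lengths are medians of annotated mRNAs, and reads shared with pseudogene copies could have been assigned in ways that the counts do not show.

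**Figure D1:**
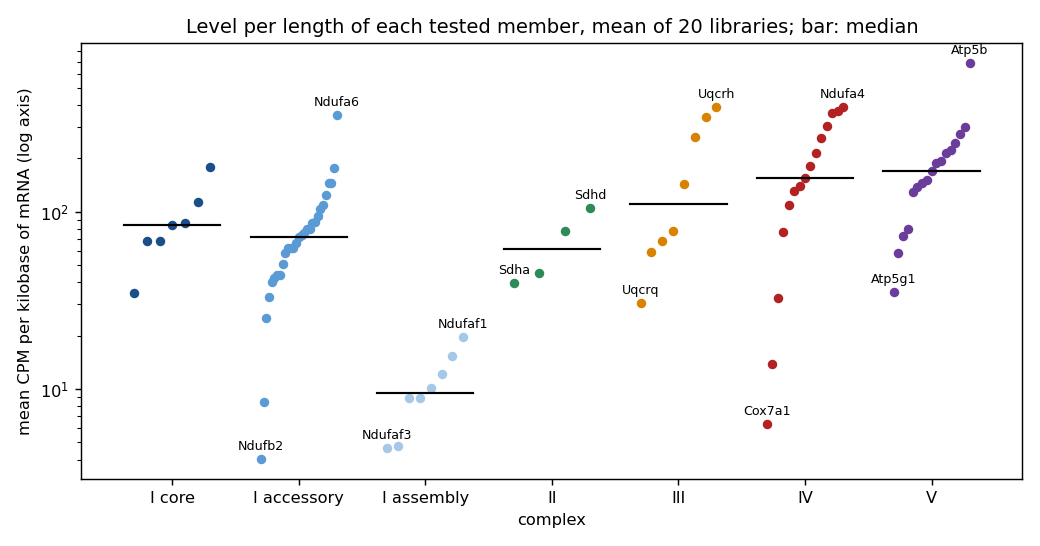
Mean CPM per kilobase of mRNA over 20 libraries on a log axis, for the 88 tested genes with an annotated mRNA length, by complex; each point is a gene and each bar a median. Assembly factors sit lowest with a median of 9.53, and Atp5b stands highest at 686.

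No oxidative phosphorylation gene passed the test between treatments. The first question was whether activating MuSK, by agrin or by the bivalent antibody, or inhibiting it under agrin moved these genes. By edgeR's quasi-likelihood test with Benjamini-Hochberg adjustment, 0 of the 89 were called in any of the 8 comparisons, and 0 of 14605 genes in all (0% called in each). At an unadjusted p under 0.05, agrin against control held 0 of the 89 (2.85% of all genes), the bivalent antibody against control 1 (2.77%) and the bivalent antibody against agrin 0 (2.39%).
With the monovalent antibodies the number of small unadjusted p-values turned on 1 library. With all libraries, agrin with 13-3B5xb12 held 8 genes against agrin (3.83% of all genes), all 8 lower (2.29% of all genes were lower), and 4 against control (2.39%). Agrin with 11-3F6xb12 held 1 against agrin (3.33%) and 1 against control (3.25%). Set against 13-3B5xb12 under agrin it held 7 (4.22%), all 7 higher (2.37%). Without replicate 1 of agrin with 13-3B5xb12 the 8, 4 and 7 genes became 1 lower, 0, and 2 higher with 1 lower. Without both libraries that stand apart, agrin with 13-3B5xb12 held 2 against agrin and 1 against control, agrin with 11-3F6xb12 held 3 and 3, and the last comparison held 4 higher and 1 lower. For these reduced sets of libraries the share of all genes is not given, so the counts are not read against it. These comparisons share their control and agrin libraries.

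Summed over the 96 genes, the level was 9648 ± 941 CPM in the control group, 10147 ± 313 with the bivalent antibody, 10023 ± 749 with agrin, 9191 ± 967 where 13-3B5xb12 was added to agrin, and 9955 ± 636 where 11-3F6xb12 was added (SD, n = 4 each). The group with 13-3B5xb12 had the lowest mean for 64 of the 89 genes, and the bivalent group the highest for 44. The median log2 difference of the 89 was -0.14 for 13-3B5xb12 against agrin, beside -0.01 over all genes, and 0.08 for the bivalent antibody against control, beside 0.00. Without the 2 libraries that stand apart these medians were -0.07 and 0.02. Both medians were nearer 0 without those libraries. The libraries left out were low in these genes within their groups, so their removal moves both differences that way by construction.

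Among the 89 genes the smallest unadjusted p in the treatment comparisons belonged to Cox7a1, the heart and muscle form of a small complex IV subunit. Cox7a1 was at 2.41, 4.84, 3.08 and 3.79 CPM in agrin replicates 1 to 4 and at 1.23, 3.28, 0.679 and 1.09 CPM in agrin with 13-3B5xb12. The second replicate with the antibody lay among the agrin libraries, so the groups overlapped. The log2 difference was -1.19 (SE 0.40), with an edgeR adjusted p of 0.999.
The genes with the smallest p in the remaining comparisons did not pass after adjustment either. Atp5j2, a membrane subunit of complex V, differed by 0.37 (SE 0.13) on the log2 scale between agrin with 11-3F6xb12 and agrin with 13-3B5xb12. Atp5j, a peripheral stalk subunit of complex V, differed by 0.23 (SE 0.08) between the bivalent antibody and control. Ndufa8, an accessory subunit of complex I, differed by -0.27 between agrin with 11-3F6xb12 and agrin, and Atp5g3 by 0.19 between agrin with 13-3B5xb12 and control.

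The succinate dehydrogenase subunits are given by treatment as an example, and do not stand for the other complexes. Sdha was at 115 ± 20.4 CPM in control, 109 ± 6.65 with the bivalent antibody, 117 ± 4.70 with agrin, 121 ± 9.89 where 13-3B5xb12 was added to agrin, and 115 ± 13.6 where 11-3F6xb12 was added (SD, n = 4). Sdhb, the iron-sulfur subunit, was lowest with 13-3B5xb12 at 82.0 ± 9.94 CPM and highest with the bivalent antibody at 95.3 ± 4.17. The anchors Sdhc and Sdhd ranged over group means of 86.8 to 93.5 and 121 to 137 CPM. Each of these ranges is near the spread between replicates of a group.

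**Figure D2:**
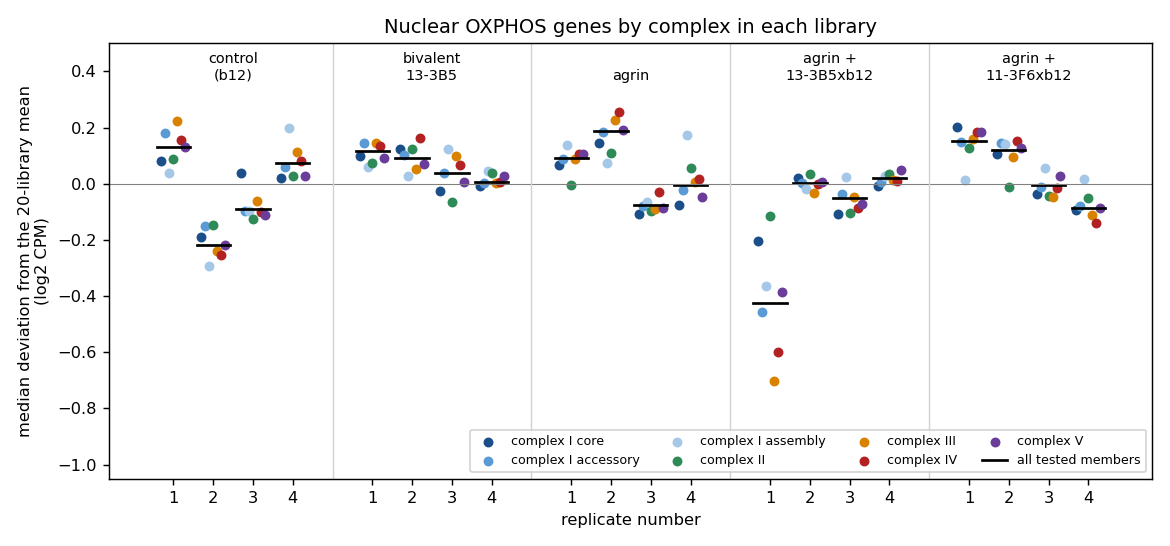
Median deviation of each complex's tested genes from their 20-library mean (log2 CPM), by treatment and replicate number; coloured points are complexes and black bars all 89 genes. Agrin with 13-3B5xb12 replicate 1 lies lowest, with complex III and complex IV below the other complexes, and control replicate 2 is the next lowest.

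In the replicate 1 library of agrin with 13-3B5xb12, 80 of the 89 genes lay below the mean of the other 3 libraries of the treatment, with a median log2 difference of -0.44. The shortfall differed between complexes: the median was -0.68 for complex III, -0.56 for complex IV, -0.47 for complex I accessory subunits and -0.41 for complex V, but -0.12 for complex I core subunits and -0.10 for complex II. Cox8b was farthest below at -1.76 and Cox6a2 farthest above at 0.32. Short messages were lower than long ones: the median was -0.62 for the shorter 44 and -0.27 for the longer 44 of 88 genes with a length, with a Spearman rho of 0.60 across genes, which share this library and are not independent. Cytosolic ribosomal protein genes, also short and abundant, summed to 18992 CPM in their lowest library and to a median of 27852 CPM in replicates 1 and 2.
Control replicate 2 showed a smaller shortfall. In it 80 of the 89 genes lay below the other control libraries, with a median of -0.26 and a rho with length of 0.21. Ndufaf4, an assembly factor, was farthest below at -0.78 and Sdha farthest above at 0.47. Other libraries came near this: agrin replicate 3 had 74 of the 89 genes below, a median of -0.17 and a rho of 0.30. In replicate 4 of agrin with 11-3F6xb12 these values were 74, -0.17 and 0.14. The part of RNA length or quality in these libraries was not tested.

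**Figure D3:**
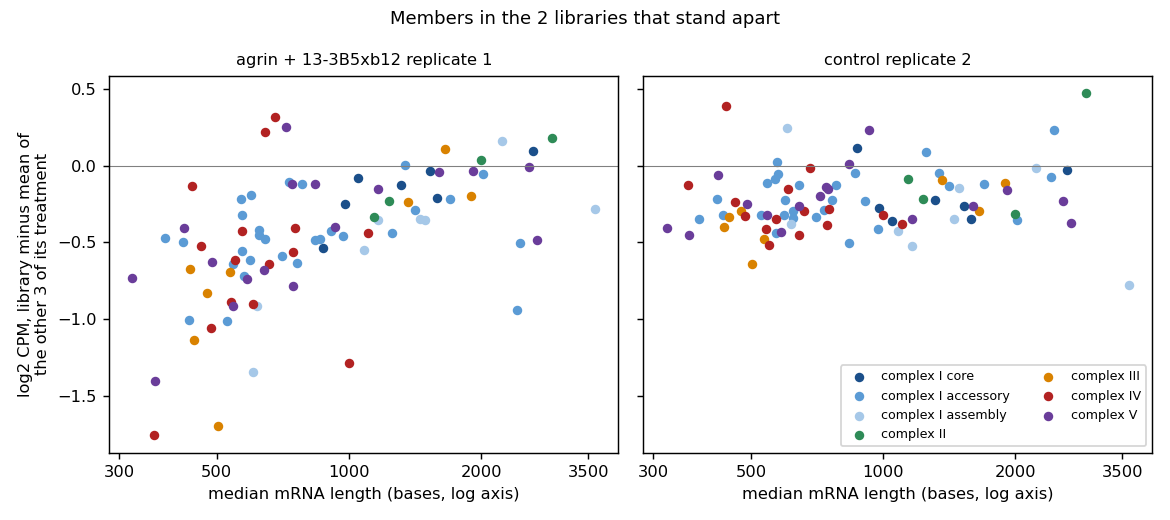
Log2 CPM of each tested gene in the library named, minus the mean of the other 3 libraries of its treatment, against median mRNA length in bases on a log axis; points are 88 genes coloured by complex. In agrin with 13-3B5xb12 replicate 1 short messages lie lower (rho 0.60), and in control replicate 2 the relation is weaker (rho 0.21).

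Calls among these genes came from the comparison of replicate numbers. Libraries numbered 3 and 4 were compared with those numbered 1 and 2, 10 against 10, with treatment in the model. The labels do not call this split a batch, and it was chosen with the first principal component of these data known, so its p-values are not independent of that choice. Of the 89 genes 9 were called (10.1%), 3 higher and 6 lower in replicates 3 and 4, beside 13.1% of all tested genes (5.93% higher, 7.13% lower). The share of called genes was thus near the background. No oxidative phosphorylation gene separated the 2 sets of libraries without overlap, as 0.541% of all genes did upward and 1.14% downward. The median log2 difference of the 89 was -0.04 (29 positive, 60 negative), beside 0.01 over all genes.

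Complex I held 4 of the 9 called genes. Ndufs1, the large iron-sulfur core subunit, ran from 210 through a median of 236 to 262 CPM in replicates 1 and 2 and from 194 through 205 to 218 CPM in replicates 3 and 4. It was lower in replicates 3 and 4 of all 5 treatments with little overlap, by a log2 difference of -0.20 (SE 0.04, edgeR adjusted p = 0.00036). Ndufs4, an accessory subunit on the matrix arm, had medians of 97.3 CPM (70.0 to 105) and 80.0 CPM (74.8 to 85.8), a difference of -0.22 (SE 0.05). Ndufc1, a small accessory subunit of the membrane arm, went from a median of 29.1 CPM (22.8 to 30.3) to 23.2 CPM (19.0 to 28.6), a difference of -0.23. Ndufa8 went the other way, from 20.2 CPM (16.2 to 23.7) to 22.9 CPM (19.6 to 26.7), by 0.21 on the log2 scale.
The complex I genes next in order did not pass. Ndufa13, Ndufa1 and Ndufb11 had log2 differences of -0.16, -0.22 and -0.20 with adjusted p of 0.0714, 0.0862 and 0.0874 in edgeR. Ndufaf4, Ndufa10, Ndufa12, Ndufb7 and Ndufaf7 had positive differences of 0.08 to 0.15, and none passed. The 8 assembly factors held no called gene and were the group with a positive median, 0.05.

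Complexes II, III and V held 2 called genes. Uqcrc2, a core protein of complex III, fell from a median of 159 CPM (124 to 173) to 139 CPM (127 to 157), by a log2 difference of -0.15 (edgeR adjusted p = 0.0433). Atp5pb, subunit b of the peripheral stalk of complex V, fell from 381 CPM (283 to 399) to 321 CPM (301 to 356), by -0.17 (SE 0.05). Uqcrq, a small complex III subunit, had the largest positive difference, 0.37, from 13.8 CPM (4.75 to 19.4) to 16.8 CPM (14.0 to 21.4), but did not pass (adjusted p = 0.140). Atp5d, in the central stalk of complex V, differed by 0.14 (adjusted p = 0.0665). Of complex II, Sdhb differed by -0.12, Sdhd by -0.11, Sdha by 0.04 and Sdhc by -0.01, and none passed.

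Complex IV held 3 called genes of 15 tested, beside 13.1% of all tested genes. All 3 belong to pairs of general and muscle forms, as do Cox6a2, Cox7a2 and Cox8b, which were not called. Cox8a, a general form, had a median of 69.4 CPM (46.9 to 73.4) in replicates 1 and 2 and 74.3 CPM (71.5 to 85.2) in replicates 3 and 4, higher by 0.21 on the log2 scale (SE 0.06, edgeR adjusted p = 0.0160). Cox6a1, also general, went from 60.4 CPM (45.3 to 66.6) to 63.7 CPM (59.4 to 74.0), higher by 0.16 (adjusted p = 0.0477). Cox7a1, a muscle form with 16 to 103 counts per library, went from 3.65 CPM (1.23 to 4.84) to 1.95 CPM (0.679 to 3.79), lower by a log2 difference of -0.77 (SE 0.20, adjusted p = 0.0069).
The other muscle forms had negative differences that did not pass. Cox8b was at a median of 15.2 CPM (3.11 to 20.2) in replicates 1 and 2 and 9.12 CPM (6.95 to 11.9) in replicates 3 and 4, a log2 difference of -0.59 (adjusted p = 0.0839). In its lowest library, agrin with 13-3B5xb12 replicate 1, Cox8b was below every library of replicates 3 and 4, while the other 9 libraries ran from 8.78 CPM up. Cox6a2 was at 10.2 CPM (8.31 to 13.4) and 8.36 CPM (6.49 to 11.5), a difference of -0.28 (adjusted p = 0.107). The general form Cox7a2 was at 111 CPM (67.2 to 120) and 97.0 CPM (89.9 to 115), a difference of -0.09.

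Set as ratios within each library, the muscle forms took a smaller share in replicates 3 and 4. The log2 ratio of Cox8b to Cox8a averaged -2.34 ± 0.58 in replicates 1 and 2 and -3.05 ± 0.25 in replicates 3 and 4 (SD, n = 10 each). The difference was -0.71, in 4 of 5 treatments (two-sided exact permutation within treatments, p = 0.0046, 0.0156 adjusted over 7 isoform pairs). Cox6a2 to Cox6a1 moved from -2.52 ± 0.22 to -2.97 ± 0.29, a difference of -0.45 in 5 of 5 treatments (exact p = 0.0036, adjusted 0.0156). Cox7a1 to Cox7a2 moved from -4.96 ± 0.38 to -5.62 ± 0.75, a difference of -0.66 in 4 of 5 treatments (exact p = 0.0067, adjusted 0.0156).
The exceptions were the 13-3B5xb12 group for Cox8b to Cox8a, where replicate 1 had a ratio of -3.88, and the agrin group for Cox7a1 to Cox7a2. Without the 2 libraries that stand apart the differences were -0.91, -0.40 and -0.73, with exact adjusted p of 0.0036, 0.0396 and 0.0396. Leaving out every library with replicate number 2, 3 or 4 ended all 3 calls (exact adjusted p of 0.0576 to 0.230), while the differences kept their sign. Fewer arrangements within treatments remain then, so the smallest p that can be reached is larger. The pairs were chosen with earlier results of these data known.

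The other 4 isoform ratios did not pass the test. Cox4i2 to Cox4i1 differed by 0.36 and Ndufa4l2 to Ndufa4 by -0.07, with exact p of 0.362 and 0.810, and the first gene of each was at or near 0 counts in most libraries. Cox4i1 and Ndufa4 themselves were at means of 270 and 178 CPM. The c-ring genes gave differences of 0.01 for Atp5g1 to Atp5g2 and 0.09 for Atp5g1 to Atp5g3 (exact p of 0.844 and 0.434).

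**Figure D4:**
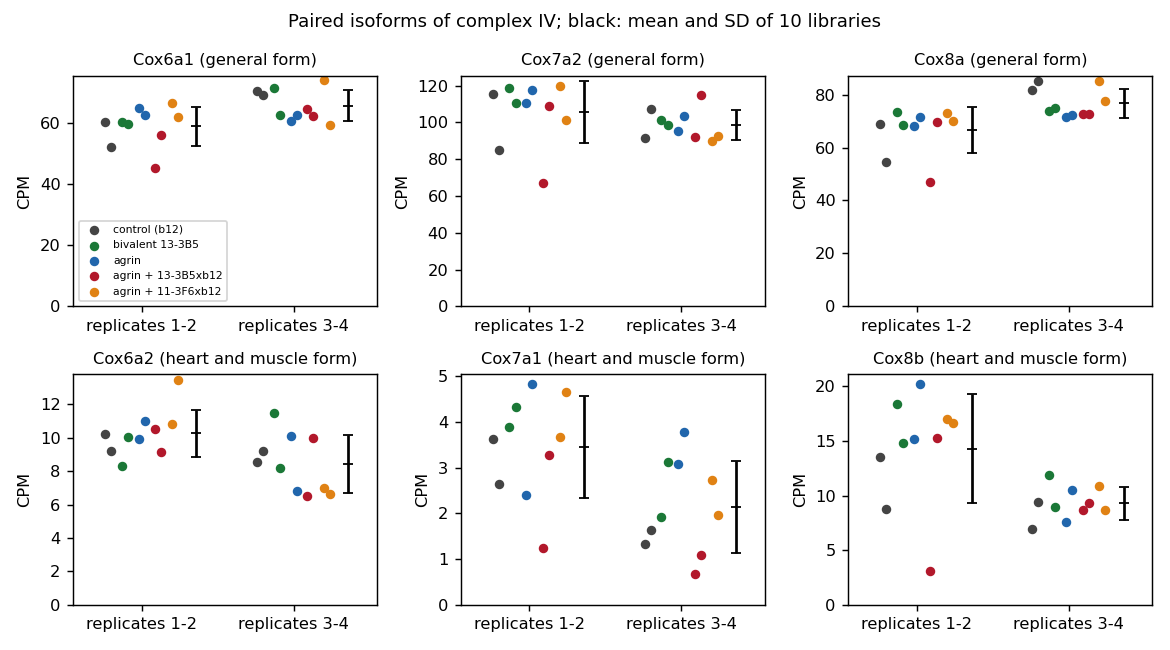
CPM of the general form (top) and the heart and muscle form (bottom) of 3 complex IV subunits in replicates 1-2 and 3-4; points are libraries coloured by treatment, with mean and SD of 10 libraries in black. Cox7a1 and Cox8b run lower in replicates 3-4 with overlap, Cox8a runs higher, and the lowest Cox8b point, 3.11 CPM, is agrin with 13-3B5xb12 replicate 1.

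The 2 libraries that stand apart both belong to replicates 1 and 2 and both had low levels of these genes, so leaving them out moves the difference downward by construction. Without them 46 of the 89 genes were called (51.7%), 43 lower and 3 higher, beside 17.6% of all genes, and the median log2 difference was -0.13. Leaving out only the 13-3B5xb12 library gave 25 called genes (28.1%, beside 14% of all genes), and leaving out only control replicate 2 gave 16 (18%, beside 13.8%). A length correction that kept all 20 libraries gave 21 (23.6%, beside 14.9%). It used the joined length of all annotated exons of a gene, not the mRNA length used above. Of the 9 genes first called, 7 were also called without both libraries, the other two being Cox6a1 and Ndufa8, and all 9 kept their sign.
The lower calls then spread over the complexes except the assembly factors. They were 4 of 7 complex I core subunits, 16 of 30 accessory subunits, 0 of 8 assembly factors, 2 of 4 subunits of complex II, 4 of 8 of complex III, 9 of 15 of complex IV and 8 of 17 of complex V. The higher calls were Sdha at 0.12, Cox8a at 0.12 and Atp5d at 0.15 on the log2 scale. Cox8b was called without the 2 libraries, at -0.79 (edgeR adjusted p = 8.38e-09), as were Sdhb at -0.18 and Sdhd at -0.17. Complex II thus held differences of both signs.

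**Figure D5:**
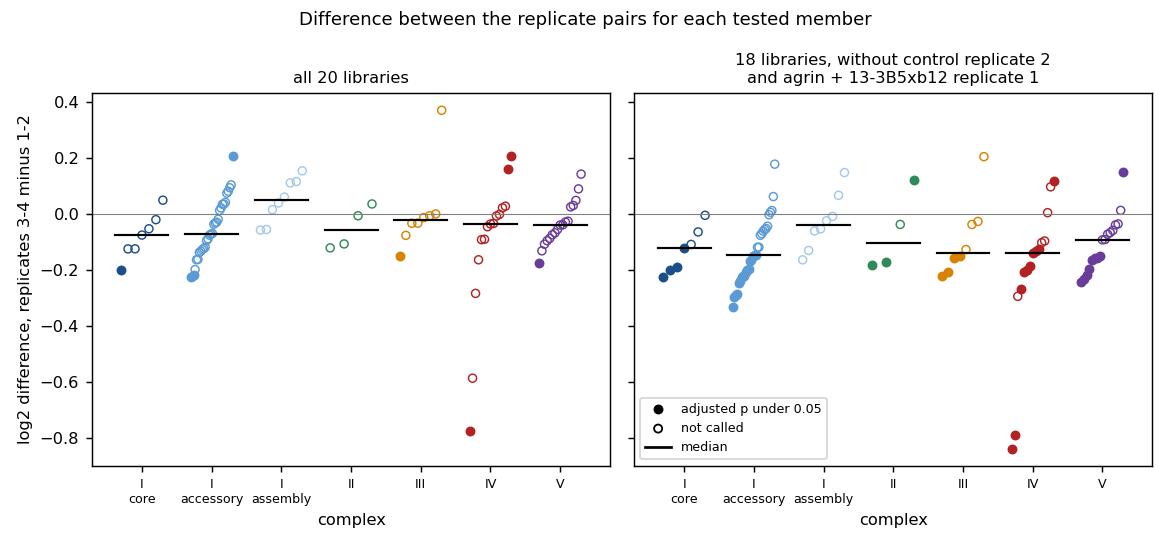
Log2 difference between replicates 3-4 and 1-2 for each of 89 genes by complex, in all 20 libraries (left) and without the 2 libraries that stand apart (right); filled points have an adjusted p under 0.05 and bars are medians. Called genes number 9 on the left and 46 on the right, where assembly factors hold none.

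For each treatment, the libraries' median deviations over the 89 genes were averaged within replicates 3 and 4 and within replicates 1 and 2. The first minus the second was -0.18 with agrin, -0.18 with agrin and 11-3F6xb12, and -0.08 with the bivalent antibody. It was 0.04 in control and 0.20 with agrin and 13-3B5xb12. The last 2 treatments hold the libraries that stand apart. An interaction of treatment and replicate pair was called by edgeR for 0 of the 89 genes and for 0.00685% of all genes. At an unadjusted p under 0.05 it held 10 of the 89, beside 4.85% of all genes.

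Among related genes outside the symbol rule the shares called between replicate pairs are read against the 13.1% of all tested genes. Of 12 tested regulators of mitochondrial biogenesis 1 was called (8.33%, below that share), and this was Ppargc1a, which encodes the coactivator PGC-1alpha. Ppargc1a ran from 0.273 through a median of 1.73 to 3.02 CPM in replicates 1 and 2 and from 0.153 through 0.356 to 0.956 CPM in replicates 3 and 4, on 3 to 65 counts per library. It was lower in replicates 3 and 4 of all 5 treatments with overlap between the sets, by a log2 difference of -1.93 (SE 0.37, edgeR adjusted p = 0.000247), and -1.64 without the 2 libraries that stand apart. Tfam, Nrf1, Gabpa and Esrra, other regulators of respiratory genes, had differences of -0.07, -0.03, 0.01 and -0.07 and were not called.
Among 44 other nuclear genes for assembly and electron transfer 1 was higher (Coa3) and 3 were lower (Cox19, Ttc19 and Uqcc1), 9.09% in all and below the share of all genes. Of 14 tricarboxylic acid cycle genes Suclg2 was higher and Sucla2 lower (14.3%, near the share of all genes), which encode alternative beta subunits of succinyl-CoA ligase. Of 9 tested mitochondrially encoded subunits 4 were called (44.4%): mt-Nd1 and mt-Nd2 were higher, by 0.34 and 0.50, and mt-Co1 and mt-Nd5 lower, by -0.17 and -0.23 on the log2 scale.

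Markers of cell state were compared over the same split, where 7.13% of all tested genes were lower and 5.93% higher. Of 18 markers of differentiated myotubes 7 were lower (38.9%) and 0 higher, with a median log2 difference of -0.21, and their summed level was 19002 to 21531 CPM in replicates 1 and 2 and 15839 to 19318 in replicates 3 and 4. Ckm, muscle creatine kinase, differed by -0.72 and Atp2a1, the fast-fibre calcium pump, by -0.68. Of 14 markers of dividing or undifferentiated myoblasts 2 were lower (14.3%), and of 7 tested fibroblast markers 3 were lower (42.9%). Of 80 cytosolic ribosomal protein genes 27 were higher (33.8%) and 0 lower. No marker of these lists was at 0 in every library, and their part in the differences of the oxidative phosphorylation genes was not tested.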

How the data were processed

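Total RNA of 20 C2C12 libraries was measured by sequencing. The deposited table holds whole-number counts per gene, not normalized, and this unit was read from the values. Per the submitters' processing notes, Trim Galore 0.6.6, cutadapt 2.10, STAR 2.7.6a, HTSeq 0.12.4, DESeq2 1.32.0 and the build GRCm38 were used. The annotation release and the use of strand in counting are not given in the sources used here. Exons of 31 of the 96 genes overlap a gene on the opposite strand in GENCODE M21, which held 26667 of the 26722 IDs and gave lengths and positions, so values of such genes, Ndufs1, Uqcrc2, Cox6a2 and Atp5pb among them, are uncertain where strand was not used. Groups and replicate numbers came from the titles.

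The count models were run in edgeR 4.0.16 under R 4.3.3, after filtering with filterByExpr (minimum count 10, minimum total 15) and TMM scaling. Robust quasi-likelihood fits used all libraries with treatment (15 residual degrees of freedom), with treatment and replicate pair (14) or with their interaction (10). All p-values were two-sided and adjusted by Benjamini-Hochberg over all 14605 genes with a threshold of 0.05. Standard errors were taken as the log2 difference over the root of F, and log2 CPM was computed with a prior count of 2. Isoform ratios were tested by all 7776 arrangements within treatments, whose smallest p is 0.000257. limma 3.58.1 and DESeq2 1.42.0 served for alternatives. The fits were tested on simulated data, with changes set in genes not of low level. For agrin against control 22% of 1.25-fold and 78% of 1.5-fold changes were called, so small treatment differences could be missed. Between replicate pairs the fit called 72% and 96% of them. No library pair agreed within sampling noise.

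The genes, lists and comparisons were chosen with earlier results of these data known. Named genes are the 10 with the smallest p in each direction between replicate pairs, the smallest p of each treatment comparison, the Sdh genes, the isoform pairs and the highest gene per length of each complex or role, of which 1 is not reported here. The pairing of libraries comes from the replicate numbers in the titles. Deviations of same-numbered libraries correlated by over 0.1 in every pair in 4 of the 8 treatment comparisons, with a mean of 0.195 over all comparisons, beside 0.201 for the other number of the same replicate pair.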

Additional observations from a re-analysis of the deposited data

Results flagged for a closer look

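In 5 of 100 sets of 4 libraries (20 measures in 5 treatments) the lowest library lay far from the others, and chance alone gives about 1 such set in 20. For 4 of them it was agrin with 13-3B5xb12 replicate 1. There the summed level of complex I accessory subunits was 1331 CPM, beside 1748 to 1830 CPM in the other 3 libraries. Complex I assembly factors summed to 98.2 CPM, beside 122 to 124, and complex III to 604 CPM, beside 848 to 897. Cox8a was at 46.9 CPM, beside 69.8 to 72.7. The remaining set was Ndufa8 with the bivalent antibody, at 19.0 CPM in replicate 2 beside 21.5 to 21.6.

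Some of the 13 pseudogene symbols left out by the rule had counts above the limit of 3 that a count of 0 allows. The median count per library was 363 for Ndufa12-ps, 234 for Cox5b-ps, 9.5 for Atp5pb-ps and 6.5 for Ndufs5-ps. Reads of these copies and of Ndufa12, Cox5b, Atp5pb and Ndufs5 may have been exchanged in counting.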

How the results depend on the processing

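In the treatment comparisons no alternative called any of the 89 genes. Over all genes, dropping the filter on low counts called 4 (agrin against control), 2 (bivalent antibody against control), 7 (bivalent antibody against agrin), 6 and 3 (agrin with 13-3B5xb12 against agrin and control), and 13, 13 and 27 (agrin with 11-3F6xb12 against agrin, control and agrin with 13-3B5xb12). For the last 3 comparisons in that order, a term for the replicate pair called 2, 3 and 10 genes and the replicate block 2, 3 and 5. DESeq2's Wald test called 2 in the last. The replicate block without the 2 libraries that stand apart, chosen after seeing the data, called 17, 5 and 16, and 1 each for agrin with 13-3B5xb12 against agrin and control. The block changed no other call.

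Between replicate pairs, 9 oxidative phosphorylation genes became 24 with counts summed by replicate number, 17 with a random replicate block (consensus correlation -0.054), 14 with no filter and 21 with the length correction. The counts were 46 without the 2 libraries that stand apart and, chosen after seeing the data, 25 and 16 without each alone and 42 with length correction and without both. For the 24, 17, 14 and 42 the share of all genes called is not given, so these counts are not read against it. Leaving out a replicate number or a library gave 1 to 25 (1 without replicate 3, namely Ndufs1), and 1045 to 2101 genes in all beside 1908 (1045 and 1171 without replicates 3 and 4). A paired fit was not possible here, because a number belongs to 1 replicate pair.

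Leaving out a number gave -0.50 to -0.41 for Cox6a2 to Cox6a1, -0.90 to -0.42 for Cox7a1 to Cox7a2 and -0.87 to -0.55 for Cox8b to Cox8a. Atp5g1 to Atp5g2 ranged from -0.0487 to 0.0717, reversed without replicate 2 (-0.0367) or 3, and Ndufa4l2 to Ndufa4 from -0.39 to 0.25, reversed without replicate 1 (0.14) or 3. The cause was not tested. Low counts limit the values of Cox7a1, Ppargc1a, Cox4i2 and Ndufa4l2.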
